A study of Mus musculus with 18 samples.

Results

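The genes described here are 10 genes that drive and police cell division, namely the cyclin-dependent kinase Cdk1, its B-type cyclins Ccnb1 and Ccnb2, the kinases Plk1, Aurka and Aurkb, the spindle checkpoint kinases Bub1 and Bub1b, the kinetochore protein Cenpf and the transcription factor Foxm1. They were picked by symbol from the deposited RNA-seq count table, which lists 36757 genes, by a rule that uses no measured value, though earlier results of these data were known. All 10 passed the filter on low counts in each of the 3 models of the study.

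Entry into mitosis is set by the kinase that Cdk1 forms with a B-type cyclin. Plk1 and the Aurora kinases then build the spindle and settle how chromosomes attach to it, while the spindle checkpoint, in which Bub1 and Bub1b act, holds back anaphase until every chromosome is attached. Transcripts of these genes are scarce in resting cells and peak in G2 and M phase, in part through Foxm1, and in the colon most dividing cells sit in the lower crypt.

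The study asked what loss of the ubiquitin ligase RNF138 does to the transcriptome of the mouse colon during chronic colitis and colitis-associated cancer (CAC). Wild-type mice (RNF138fl/fl, a floxed allele without deletion) were compared with RNF138-/- mice, all C57BL/6, 6-8 weeks old at the start and co-housed, with both sexes in use. How the deletion was made, and in which cells, is not described in the sources used here. Mice of the colitis model drank 2% (w/v) dextran sodium sulfate (DSS) for 7 days and plain water for 14 days, in repeated cycles, and were killed 4 weeks after the last DSS. CAC mice first received 10 mg/kg azoxymethane (AOM), a colon carcinogen, by intraperitoneal injection, and after 4 days began cycles of DSS and water of the same lengths. Organoids were grown in matrigel from digested tumour-bearing bowel fragments of CAC mice, so that they carry the AOM and DSS exposure as well. Each of the 6 groups had 3 libraries, and every group had been exposed to DSS, since no untreated colon is among the libraries analysed here. Nothing states that the 3 libraries of a group came from separate mice or cultures, and p-values then measure only the spread between these libraries.

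The libraries held 11514716 to 24390082 counts assigned to genes, of which 1105 to 8826 fell on the 10 genes, and no gene had fewer than 50 counts in any library. Rnf138 itself was not lowered by the label: levels in CPM (library-scaled counts, set to a common scale over all 18 libraries) were 15.6, 17.95 and 25.1 in wild-type colitis against 19.4, 17.97 and 19.1 in the libraries labelled RNF138-/-, 27.5, 27.2 and 21.5 against 39.6, 45.3 and 45.7 in CAC, and 37.7, 53.4 and 55.6 against 50.2, 47.8 and 42.8 in organoids. The Rnf138 log2 fold change was 0.72 (SE 0.14, adjusted p = 0.0426 by edgeR's quasi-likelihood test) in CAC, and in no model was it lower by more than the spread, with log2 fold changes of -0.06 (SE 0.22) in colitis and -0.10 (SE 0.16) in organoids. The CAC call was lost without replicate 1 or 2 labelled RNF138-/-, where the CAC fit called 0 of all genes. The counts cover the whole gene and the deleted exons are not given, so that they do not check the deletion, and libraries are named below as labelled. Counts of Y-linked genes were present in all 12 tissue libraries and in the 3 organoid libraries labelled RNF138-/-, whereas the 3 wild-type organoid libraries had none and expressed Xist, so that sex and genotype cannot be told apart in organoids. Wild-type CAC replicate 3 stood apart, with a summed level of 14121 CPM for 6 differentiated colonocyte markers against 2968 and 2326 CPM in its replicates. The genotype differences of the 10 genes in CAC and the Plk1 call between CAC and colitis are given with and without it.

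Promoters of mitotic genes often carry CCAAT boxes, the site of the factor NF-Y, and the element TTTGAA, known as the cell cycle genes homology region and bound by the MuvB complex. RefSeq promoter windows (GRCm38.p6, 250 bases before to 50 after the start) were at hand for 8 of the 10 genes. On either strand CCAAT occurred in 8 of the 8 windows against 37.4% of all 32851 promoter windows, TTTGAA in 6 of 8 against 17.9%, both motifs together in 6 of 8 against 6.95%, and at least 2 CCAAT boxes in 6 of 8 against 11.7%. The E2F-like element TTTNNCGC was found in 1 of 8, that of Cdk1, against 5.17%. These matches describe letters in a window and say nothing of binding. The 6 stretches shown give examples with several CCAAT boxes and, in Bub1b and Plk1, with a single one, written 5′ to 3′ on the gene's strand from 150 bases before the start (shorter for Cdk1, where 26 bases within an annotated transcript were left off), with motifs in capitals and ATTGG standing for CCAAT on the other strand:
Ccnb2 (chr9:70421555-70421704, minus strand): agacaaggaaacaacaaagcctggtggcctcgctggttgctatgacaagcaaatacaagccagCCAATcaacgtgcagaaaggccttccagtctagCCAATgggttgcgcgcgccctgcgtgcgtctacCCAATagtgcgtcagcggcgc
Cdk1 (chr10:69352939-69353062, minus strand): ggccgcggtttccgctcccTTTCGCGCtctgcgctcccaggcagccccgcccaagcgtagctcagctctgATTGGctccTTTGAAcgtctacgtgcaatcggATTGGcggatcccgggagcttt
Aurka (chr2:172370571-172370720, minus strand): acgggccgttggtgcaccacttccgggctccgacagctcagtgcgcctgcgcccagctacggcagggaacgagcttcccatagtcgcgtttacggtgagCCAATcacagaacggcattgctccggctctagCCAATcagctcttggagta
Cenpf (chr1:189688087-189688236, minus strand): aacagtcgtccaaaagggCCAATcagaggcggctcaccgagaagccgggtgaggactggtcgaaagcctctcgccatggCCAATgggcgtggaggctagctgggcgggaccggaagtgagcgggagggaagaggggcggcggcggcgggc
Bub1b (chr2:118598061-118598210, plus strand): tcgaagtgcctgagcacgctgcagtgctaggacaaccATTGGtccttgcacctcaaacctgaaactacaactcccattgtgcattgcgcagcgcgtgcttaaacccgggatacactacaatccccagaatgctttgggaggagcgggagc
Plk1 (chr7:122159285-122159434, plus strand): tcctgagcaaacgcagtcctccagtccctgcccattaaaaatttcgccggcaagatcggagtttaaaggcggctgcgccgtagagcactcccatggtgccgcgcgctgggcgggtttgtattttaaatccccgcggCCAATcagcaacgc
Ccnb2, Cdk1 and Aurka shared a spacing in these stretches. Successive CCAAT boxes on one strand lay 33 and 33 bases apart in Ccnb2, 32 in Cdk1 and 32 in Aurka, against 61 in Cenpf, and Bub1b and Plk1 each had a single box. Ccnb1, which is not printed since 84 of its 150 bases before the start lie within an annotated transcript, also had a pair of boxes 32 bases apart. TTTGAA stood before the start in Cdk1, 15 and 71 bases upstream, and in Ccnb2, 167 bases upstream; it began at base 3 of the transcript in Cenpf, 5 in Ccnb2, 31 in Plk1, 33 in Aurka and 41 in Bub1b. Of these copies the one 71 bases upstream of Cdk1 is within the printed stretches.

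In GENCODE annotation of the mm10 build the 10 genes lie on 8 chromosomes. Among the pieces that matter for counting, Plk1 (chr7:122159439-122169873, plus strand) ends 19 bases before the end of Ern2 (chr7:122169893-122186207, minus strand), an endoplasmic reticulum stress sensor of goblet cells. Ern2 was singled out after its values were seen. Of the 2241 windows along Plk1 exons, 10.44% also match elsewhere, most often the pseudogene Plk-ps1, and 23.4% of the windows along Ccnb1 (chr13:100778650-100786570, minus strand) are shared, most often with Ccnb1-ps, so both levels are less certain than those of Cdk1, Aurka, Aurkb, Ccnb2, Bub1 and Bub1b, which shared none.

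Per kilobase of annotated exon, Plk1 was the most abundant of the 10 in all 4 tissue groups, with a mean of 72.3 ± 34.7 CPM per kb (SD, n = 3) in wild-type colitis, 48.0 ± 25.1 in the colitis libraries labelled RNF138-/-, 30.0 ± 7.39 in wild-type CAC and 31.2 ± 5.23 in CAC labelled RNF138-/-. Ccnb2 came next in each, at 15.6 to 21.2 CPM per kb, and its range did not reach that of Plk1 in any of the 4. In organoids the order turned: Ccnb2 led at 7.40 ± 1.99 and 12.3 ± 0.663 CPM per kb, ahead of Plk1 at 4.58 ± 2.41 and 4.99 ± 0.666 in the wild-type and RNF138-/- labelled groups. The order depends on the length used, that of all annotated exons joined, with 1531 bases for Ccnb2 and 4934 for Cdk1. By mean CPM Cdk1 led in wild-type organoids, at 14.3 against 11.3 for Ccnb2, and Ccnb2 led in those labelled RNF138-/- at 18.9. The ranges of Ccnb2 and Plk1 per kb overlapped in wild-type organoids and did not in those labelled RNF138-/-. Cdk1, Aurka, Aurkb, Bub1b and Ccnb1 formed a middle tier in which neighbouring ranges overlapped, save for Bub1b and Ccnb1 in organoids labelled RNF138-/- (3.77 to 4.43 against 2.90 to 3.50 CPM per kb), and Foxm1, Bub1 and Cenpf were the lowest of the 10 in every group, Cenpf with 0.368 to 2.80 CPM per kb as group means.

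**Figure D1:**
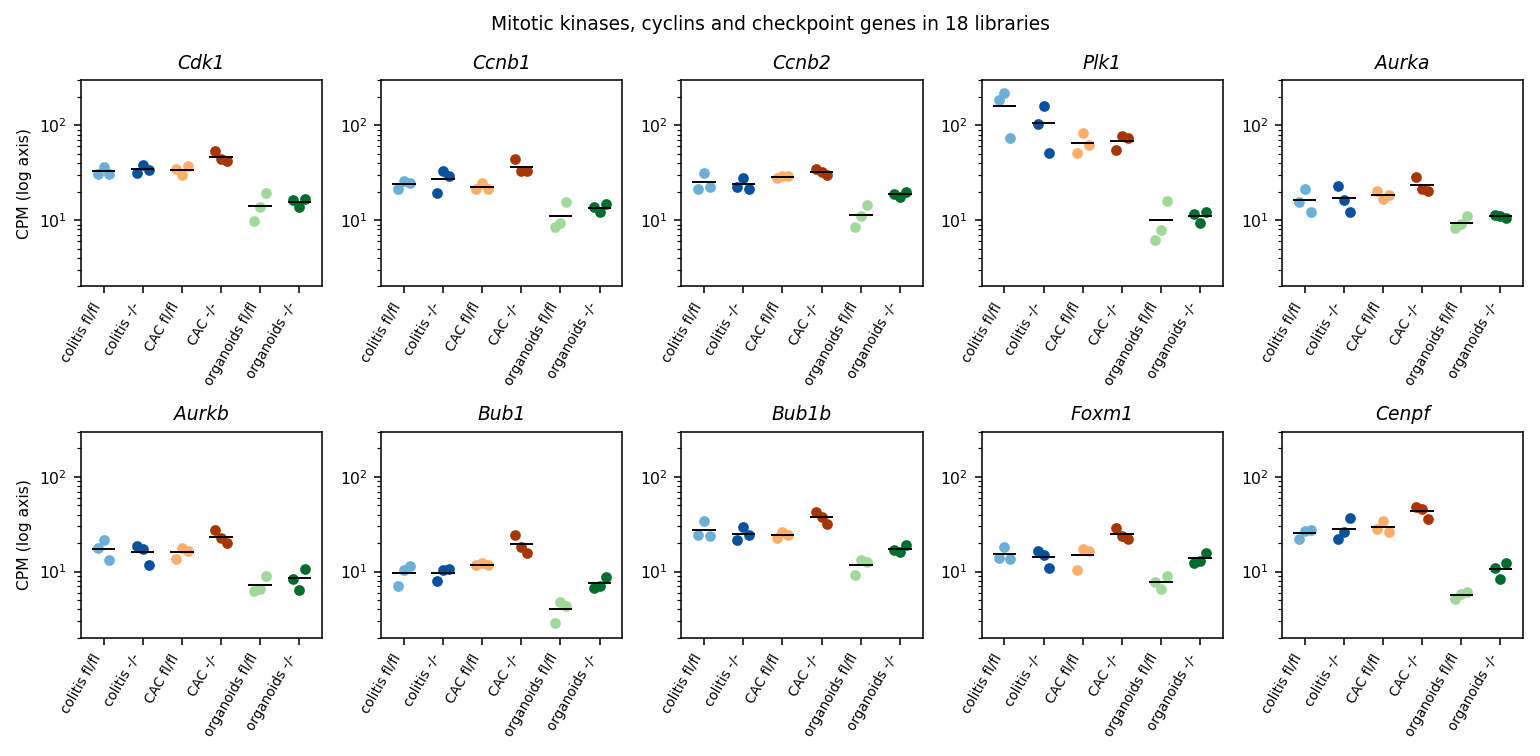
Level of each of the 10 genes in CPM (log axis) in every one of the 18 libraries, 1 point per library, grouped by model and labelled genotype. Lines mark group means, which for all 10 genes are lower in both organoid groups than in any tissue group, with Cenpf at 5.13 to 12.5 CPM there against 22.1 to 47.8 CPM in tissue, and Plk1 spreads most among the colitis libraries, from 51.3 to 219 CPM.

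The genotype comparison in colitis asked whether loss of RNF138 altered the division program in chronically inflamed colon. None of the 10 genes passed the test, which is an adjusted p under 0.05 by edgeR's quasi-likelihood test with Benjamini-Hochberg adjustment over all genes tested, against 0.018% of all genes called higher and 0.0722% called lower. No member passed at an unadjusted p under 0.05 either, with edgeR or with DESeq2, and 5 of the 10 fold changes were positive. The ranges of the genotypes overlapped for all 10, where 8.86% of all genes lay wholly higher and 8.34% wholly lower. The median log2 fold change was -0.03 over the 10 genes and 0.02 over all genes tested.

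Cdk1, the catalytic partner of the B cyclins, was at 30.6, 36.9 and 30.9 CPM in wild-type colitis and 31.3, 38.0 and 33.8 CPM in the libraries labelled RNF138-/-, which gave a log2 fold change of 0.07 (SE 0.18, adjusted p = 0.935). Ccnb1 had 21.3, 25.7 and 24.6 against 19.3, 32.8 and 29.0 CPM. The Ccnb1 values of the genotypes interleave, and so did those of Ccnb2, at 21.6 to 31.2 against 21.1 to 28.0 CPM. Among the kinases Plk1 gave the widest spread, 185.1, 218.6 and 73.1 CPM in wild type against 103.7, 161.7 and 51.3 CPM, which is a log2 fold change of -0.60 with an SE of 0.49 (adjusted p = 0.739). Replicate 3 was the lowest for Plk1 in both colitis groups, and for Ern2 in the wild type, at 102.8 CPM against 151.2 and 159.1 CPM, whereas Ern2 had 45.7, 101.1 and 54.1 CPM in the libraries labelled RNF138-/-, replicate 1 being the lowest. Aurka and Aurkb, the Aurora kinases of spindle pole and centromere, had log2 fold changes of 0.07 (SE 0.30) and -0.14 (SE 0.26). Bub1, Bub1b, Cenpf and Foxm1 lay between -0.13 and 0.15 on the log2 scale with SEs of 0.22 to 0.26. The SEs of the 9 genes other than Plk1, from 0.18 to 0.30, show the precision that 3 libraries against 3 gave.

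In CAC the question was the same for tumour-bearing colon. Again none of the 10 genes passed, against 1.05% of all genes called higher and 5.33% called lower, but the values leaned one way. In simulated counts this test recovered 0 of 100 2-fold changes in CAC, 14 of 100 in colitis and 50 of 100 in organoids. The lack of calls in CAC and colitis therefore says little of changes below 2-fold. Each of 9 genes, all but Plk1, was higher in every library labelled RNF138-/- than in every wild-type library, compared with 24.4% of all genes. The median log2 fold change of the 10 was 0.50 against 0.006 over all genes tested, and 7 of the 10 had an unadjusted p under 0.05 with the same direction, compared with 14.1% of all genes. By DESeq2 3 of the 10, Ccnb1, Bub1 and Bub1b, passed the adjusted threshold, beside 6.17% of all genes called higher and 12.6% called lower by that tool. When all 18 libraries were fitted together 4 passed, Foxm1 being the fourth, beside 9.27% called higher and 14.2% called lower.

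The B-type cyclins differed from each other in size of effect, though that difference was not tested. Ccnb1 stood at 21.5, 25.0 and 21.4 CPM in wild-type CAC and 44.3, 33.4 and 32.8 CPM in the libraries labelled RNF138-/-, which gave a log2 fold change of 0.65 (SE 0.17, adjusted p = 0.0642). The lowest RNF138-/- labelled value of Ccnb1 lay above the highest wild-type value. Ccnb2 had 27.7, 29.3 and 28.9 against 34.9, 32.3 and 30.1 CPM, which is 0.13 (SE 0.13, adjusted p = 0.502) in log2 units. Cdk1 lay between the cyclins, with 34.4, 30.1 and 37.7 against 53.8, 44.6 and 42.4 CPM and a log2 fold change of 0.41 (SE 0.16, adjusted p = 0.130).

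Bub1 and Bub1b act together at unattached kinetochores. Bub1 levels were 11.7, 12.2 and 11.6 CPM in wild type and 24.5, 18.1 and 15.9 CPM in CAC labelled RNF138-/-, which gave a log2 fold change of 0.67 (SE 0.21, adjusted p = 0.0857). Bub1b had 22.6, 26.2 and 24.5 against 43.0, 38.0 and 32.1 CPM, or 0.57 (SE 0.16, adjusted p = 0.0702). Replicate 1 of the RNF138-/- labelled group was the highest for both, as for Ccnb1, Cdk1, Aurka, Aurkb, Ccnb2, Foxm1 and Cenpf. Foxm1, the activator of G2 and M genes, was at 10.5, 17.5 and 16.5 against 29.0, 23.8 and 22.1 CPM, the widest log2 fold change of the 10 at 0.70, yet with an SE of 0.24 (adjusted p = 0.104). Cenpf gave 27.9, 34.0 and 26.5 against 47.8, 46.1 and 35.6 CPM, 0.50 in log2 units (SE 0.17, adjusted p = 0.106).

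Among the mitotic kinases Aurkb had 13.6, 17.6 and 16.6 CPM in wild-type CAC against 27.3, 22.5 and 20.2 CPM, which gave a log2 fold change of 0.50 (SE 0.19, adjusted p = 0.123), and Aurka 0.29 (SE 0.19, adjusted p = 0.299). Plk1 was the exception to the lean, with 51.4, 83.4 and 62.8 against 55.4, 76.7 and 73.7 CPM, which gave a log2 fold change of 0.00 (SE 0.22, adjusted p = 0.992). Ern2 next door followed a like order within the CAC libraries, 52.6, 96.3 and 67.0 against 39.9, 95.8 and 84.4 CPM. Without wild-type CAC replicate 3 no gene of the 10 passed either, and the log2 fold changes of the 9 genes other than Plk1 were 0.16 to 0.80.

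Cell type markers moved with genotype in CAC beside these genes. All 6 markers of B and plasma cells fell, their summed level being 125 to 215 CPM in the libraries labelled RNF138-/- against 1503 to 2263 CPM in wild type. All 5 smooth muscle markers fell, with sums of 60.5 to 147 against 1992 to 7409 CPM, as did 2 of 6 differentiated colonocyte markers, with sums of 217 to 583 against 2326 to 14121 CPM. The 6 intestinal stem cell markers summed to 863 to 1160 against 103 to 405 CPM without a call, and the 7 pan-epithelial markers to 6848 to 8161 against 8017 to 14429 CPM, also without a call. Of the 5 germinal center B cell markers tested 2 fell, with sums of 32.5 to 40.3 against 27.4 to 37.4 CPM, and none of 7 myeloid markers was called, 3 being higher at an unadjusted p under 0.05, with sums of 260 to 490 against 100 to 343 CPM. No T cell, fibroblast or endothelial marker was called. Set against that epithelial sum, the geometric mean of the 9 genes other than Plk1 was 0.147% to 0.275% in wild type and 0.378% to 0.438% in CAC labelled RNF138-/-. The part of these cell types in the levels of the 10 genes was not tested, and in bulk RNA fewer cells of a type and less RNA per cell cannot be told apart.

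In organoids, cultures grown from tumour-bearing fragments, 4 of the 10 genes rose in the libraries labelled RNF138-/-, against 17.9% of all genes called higher and 17.7% called lower. These were Ccnb2, Foxm1, Cenpf and Bub1, by 1.62-fold, 1.73-fold, 1.81-fold and 1.82-fold, and none reached the 2-fold change that the study set as its second criterion and that 15% of all genes passed in either direction. Values of 5 genes, these and Bub1b, lay wholly above the wild type, compared with 27.6% of all genes, and 5 passed at an unadjusted p under 0.05, compared with 22.7%. The median log2 fold change of the 10 was 0.39 against -0.04 for all genes. All 10 were positive under the main scaling, but with library size alone Cdk1, Plk1, Aurka and Aurkb turned to values between -0.14 and -0.02. With that scaling the call of Foxm1 stood and those of Ccnb2, Cenpf and Bub1 were lost, beside 12.5% of all genes called higher.

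Foxm1 rose from 7.72, 6.54 and 8.97 CPM in wild-type organoids to 12.4, 13.0 and 15.8 CPM, which gave a log2 fold change of 0.79 (SE 0.18, adjusted p = 0.0136). Cenpf, which decorates the outer kinetochore, rose from 5.13, 5.82 and 6.07 to 10.9, 8.36 and 12.5 CPM, or 0.86 in log2 units (SE 0.21, adjusted p = 0.0162). For both genes the groups were clearly apart. Bub1 was the least abundant of the 10 by CPM and rose from 2.88, 4.78 and 4.38 to 6.74, 7.04 and 8.73 CPM, which gave a log2 fold change of 0.87 (SE 0.26, adjusted p = 0.0319). Its partner Bub1b, at 9.16, 13.4 and 12.7 against 17.0, 16.1 and 19.0 CPM, gave 0.52 (SE 0.18) and missed the threshold (adjusted p = 0.0558), which it passed with DESeq2 (adjusted p = 0.0309) and also with RLE scaling and without the filter.

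Ccnb2 was the only B-type cyclin called here, from 8.41, 11.1 and 14.5 CPM to 19.1, 17.8 and 19.8 CPM, which gave a log2 fold change of 0.70 (SE 0.20, adjusted p = 0.0307), whereas Ccnb1 had 8.47, 9.41 and 15.4 against 13.7, 12.2 and 14.8 CPM and a log2 fold change of 0.25 (SE 0.24, adjusted p = 0.439). For Cdk1 the values were 9.80, 13.6 and 19.4 against 16.2, 13.9 and 16.7 CPM, which gave a log2 fold change of 0.09 (SE 0.24, adjusted p = 0.801). Wild-type replicate 3 was the highest of its group for 8 of the 10 genes, all but Bub1 and Bub1b, and for Cdk1, Ccnb1 and Plk1 it was above every library labelled RNF138-/-. Plk1 (6.22, 7.89 and 16.1 against 11.5, 9.31 and 12.1 CPM), Aurka and Aurkb did not pass, with log2 fold changes of 0.08, 0.18 and 0.19 and SEs of 0.34, 0.17 and 0.25.

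Calls in organoids were lost when single libraries were left out, while the log2 fold changes kept their direction, at 0.68 to 0.90 for Foxm1, 0.73 to 1.018 for Cenpf, 0.54 to 0.92 for Ccnb2 and 0.68 to 1.021 for Bub1. Calls over all genes fell in those fits too, from 2734 higher to 1682 without RNF138-/- labelled replicate 3, 1942 without replicate 1 and 1503 without replicate 2. Without RNF138-/- labelled replicate 3 none of the 4 passed, the adjusted p being 0.0626 for Foxm1, 0.0711 for Cenpf, 0.0958 for Ccnb2 and 0.120 for Bub1; without replicate 1 Foxm1 alone passed, and without replicate 2 Foxm1 and Cenpf. Without wild-type replicate 2 Ccnb2 did not pass (adjusted p = 0.0772) and the other 3 did. Over all alternatives the adjusted p ranged from 0.00136 to 0.0626 for Foxm1, 0.00191 to 0.0711 for Cenpf, 0.00658 to 0.130 for Ccnb2 and 0.00804 to 0.120 for Bub1.

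Marker genes set the organoid groups apart too. All 6 fibroblast markers rose, summing to 40406 to 49652 CPM in the libraries labelled RNF138-/- against 9090 to 23222 CPM in wild type, and 2 of 5 smooth muscle markers rose, with sums of 476 to 575 against 33.3 to 283 CPM. Of the 7 epithelial markers 4 fell, with sums of 5557 to 8159 against 9906 to 10728 CPM, and 2 stem cell markers fell, with sums of 429 to 549 against 884 to 1346 CPM. On the CPM scale the fibroblast sum exceeded the epithelial sum in all 3 organoid libraries labelled RNF138-/- and in wild-type replicate 1, at 23222 against 10728 CPM, and was close below it in wild-type replicates 2 and 3, at 9090 against 9906 and 9740 against 10173 CPM. Of the 6 myeloid markers tested 2 rose and 1 fell, with sums of 73.9 to 114 against 70.5 to 107 CPM. The risers, Adgre1 and Itgam, were singled out after their values were seen and had 47, 42 and 51 counts and 117, 94 and 112 counts in the libraries labelled RNF138-/- against 0, 3 and 1 and 1, 0 and 8 in wild type. Of 3 germinal center B cell markers tested 1 rose, with sums of 118 to 151 against 61.9 to 89.0 CPM that did not overlap, and the 1 B and plasma cell marker tested fell, with sums of 0.299 to 0.582 against 1.12 to 1.67 CPM. Per epithelial sum, the geometric mean of the 9 genes other than Plk1 was 0.0647% to 0.101% in wild type and 0.150% to 0.201% in organoids labelled RNF138-/-. Which cells in the cultures carried the transcripts was not tested, and the sex difference above runs with genotype in the same libraries.

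**Figure D2:**
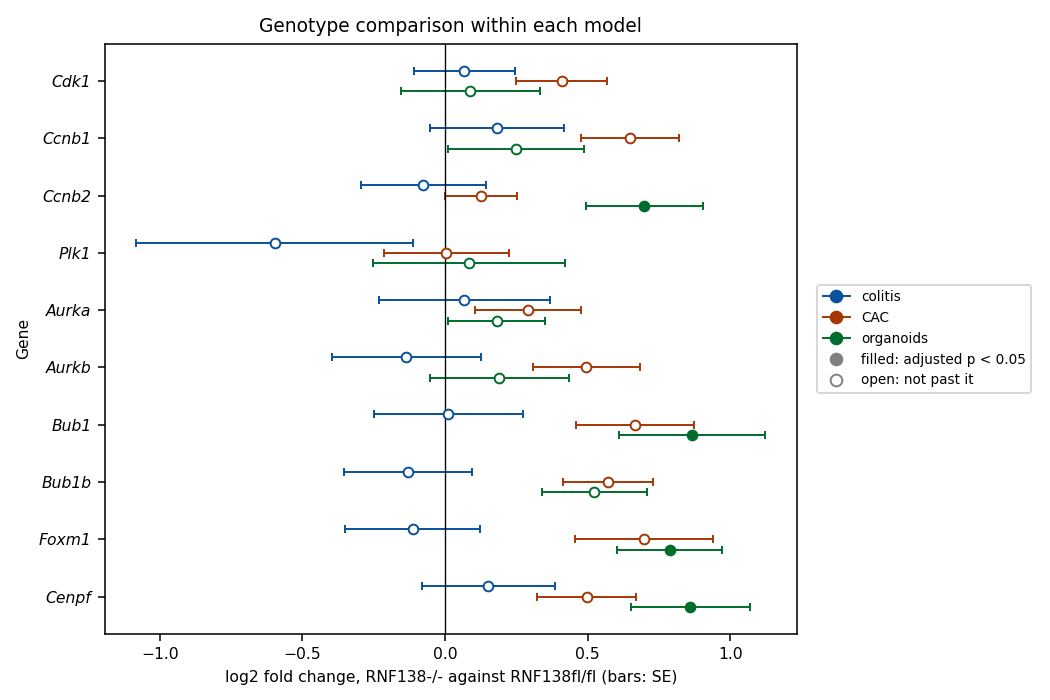
log2 fold change of the libraries labelled RNF138-/- against wild type (horizontal axis, bars are SEs) for each of the 10 genes in colitis, CAC and organoids, with filled points for an adjusted p under 0.05. The 4 filled points are Ccnb2, Bub1, Foxm1 and Cenpf in organoids, the colitis points straddle 0, and with library size alone Cdk1, Plk1, Aurka and Aurkb in organoids would lie below 0.

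Whether the genotype difference itself differed between models was tested as an interaction in a fit of all 18 libraries. Between CAC and colitis none of the 10 genes passed, against 14.1% of all genes in either direction. The largest were Foxm1, with a difference of log2 fold changes of 0.86 (SE 0.32, unadjusted p = 0.0160, adjusted p = 0.0822), and Bub1b, with 0.75 (SE 0.27, unadjusted p = 0.0135, adjusted p = 0.0746), and these 2 were the only ones at an unadjusted p under 0.05 with edgeR; DESeq2 likewise had 0 past the adjusted and 2 at the unadjusted threshold. Of all genes 30.1% had an unadjusted p under 0.05 in this test by edgeR and 17% by DESeq2. All 10 differences were positive. Between organoids and CAC 0 of 10 passed against 23.3% of all genes, with 0 at an unadjusted p under 0.05 by edgeR and 1 by DESeq2, beside 36.8% and 20.7% of all genes. Between organoids and colitis 0 of 10 passed against 7.11%, with 5 at an unadjusted p under 0.05, beside 24.9% of all genes, and DESeq2 called 2, beside 12.8% of all genes. With library size alone edgeR called Foxm1 (adjusted p = 0.0318) and Bub1b (adjusted p = 0.0451) between CAC and colitis, where 13.9% of all genes were called.

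CAC was next compared with colitis within each genotype, which asks how the division genes stand in tumour-bearing against chronically inflamed colon. These comparisons share their libraries with the genotype comparisons above. In wild-type mice only Plk1 passed, being lower in CAC with 51.4 to 83.4 CPM against 73.1 to 218.6 CPM in colitis, a log2 fold change of -1.27 (SE 0.42, adjusted p = 0.0441), whereas 7.55% of all genes were called lower and 12.3% higher. The other 9 lay between -0.17 and 0.30 on the log2 scale, and the median over the 10 was 0.004 against 0.04 over all genes. The Plk1 call held when 7 of the 18 libraries were left out in turn and was lost without any of the other 11, which were colitis wild-type replicates 1 and 2, CAC wild-type replicates 1 and 3, the 3 CAC libraries labelled RNF138-/-, organoid wild-type replicate 2 and the 3 organoid libraries labelled RNF138-/-. It was also lost with library size alone and in a fit of the CAC and colitis libraries alone. The adjusted p of Plk1 over all alternatives ran from 0.00891 to 0.153. Of the cell type markers in this comparison 2 of 6 stem cell markers were higher and 1 lower, 2 of 7 myeloid markers higher and 1 lower, and 1 of 6 B and plasma cell markers higher, with no call in the other lists. Their part in the Plk1 level was not tested.

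In mice labelled RNF138-/- 4 genes were higher in CAC than in colitis, against 27.9% of all genes called higher and 26.7% called lower. With library size alone all of the 10 but Plk1 were called higher, beside 37.7% of all genes. Bub1 rose by a log2 fold change of 1.006 (SE 0.24, adjusted p = 0.00239), from 8.01, 10.4 and 10.7 CPM in colitis to 24.5, 18.1 and 15.9 CPM in CAC. Foxm1 rose by 0.81 (SE 0.23, adjusted p = 0.00650), from 16.6, 15.04 and 10.9 to 29.0, 23.8 and 22.1 CPM. Neither gene had overlapping ranges. Cenpf rose by 0.61 (SE 0.20, adjusted p = 0.0178), from 22.1, 26.3 and 36.4 CPM, where the highest colitis library lay above the lowest CAC library at 35.6 CPM. Bub1b rose by 0.58 (SE 0.19, adjusted p = 0.0170), from 21.4 to 29.7 CPM in colitis to 32.1 to 43.0 CPM in CAC. Of the others, Cdk1, Ccnb1, Ccnb2, Aurka and Aurkb had log2 fold changes of 0.45 to 0.55 with adjusted p values of 0.0598 to 0.116, and Plk1 one of -0.62 (SE 0.42, adjusted p = 0.218). Without CAC replicate 1 labelled RNF138-/- only Bub1 and Foxm1 passed, with log2 fold changes of 0.81 and 0.69. Cenpf was also lost without CAC replicate 2 or colitis replicates 1 or 2 of that label, and Bub1b without colitis replicates 1 or 3. The adjusted p over all alternatives ran from 0.000352 to 0.0162 for Bub1, 0.000630 to 0.0441 for Foxm1, 0.00485 to 0.116 for Cenpf and up to 0.0749 for Bub1b, and without colitis replicate 3 labelled RNF138-/- Plk1 passed as lower (-1.01, adjusted p = 0.0419, over all alternatives 0.0419 to 0.643).

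Cell type markers moved in this comparison too. All 6 B and plasma cell markers, all 5 smooth muscle markers and all 6 differentiated colonocyte markers were lower in CAC labelled RNF138-/- than in colitis labelled RNF138-/-, and of 6 stem cell markers 4 were higher and 1 lower. Of 7 myeloid markers 4 were higher, with sums of 260 to 490 against 96.0 to 134 CPM, and of 7 epithelial markers 1 was higher and 2 lower. Of the 5 germinal center B cell markers tested 3 were lower and 1 higher, of 6 T cell markers 2 lower and 1 higher, and 2 of 6 fibroblast and 1 of 5 endothelial markers were lower. Their part in the levels of Bub1, Foxm1, Cenpf and Bub1b was not tested.

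Organoids were last set against CAC, the model whose tumours they were grown from. Wild-type CAC libraries had Y-linked counts and wild-type organoids had none, so that sex and model cannot be told apart in the wild-type comparison. All 10 genes were lower in organoids in both genotypes, against 33.7% of all genes called lower and 27% called higher in wild type, and 34.2% and 25.7% in the groups labelled RNF138-/-. Of the 10, 8 were at least 2-fold lower in each genotype, compared with 26.8% of all genes in wild type and 26.5% in those labelled RNF138-/-. The median log2 fold change was -1.20 in wild type and -1.41 in RNF138-/- labelled libraries, beside -0.14 and -0.22 over all genes tested. At a threshold on the adjusted p alone, all 10 calls stood in both genotypes under the other scalings, without the filter, with the block, with DESeq2, with other libraries in the fit and with any single library left out.

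Plk1 had the widest gap, at log2 fold changes of -2.71 (SE 0.45, adjusted p = 0.000101) in wild type and -2.65 (SE 0.45, adjusted p = 0.000116) in those labelled RNF138-/-. Cenpf followed with -2.38 (SE 0.22, adjusted p = 4.00e-07) and -2.03 (SE 0.21, adjusted p = 9.45e-07). No organoid library reached the lowest tissue library for either gene. Bub1 fell by 1.56 and 1.38 on the log2 scale and Bub1b by 1.06 and 1.12. Cdk1 fell by 1.26 and 1.59, Ccnb1 by 1.03 and 1.44, and Ccnb2 by 1.34 and 0.78. Foxm1 had -0.93 and -0.86, Aurka -0.97 and -1.10, and Aurkb -1.14 and -1.46. The smallest gap was that of Foxm1 in wild type and of Ccnb2 in those labelled RNF138-/-, and the highest adjusted p among the 20 tests was 0.00403. Foxm1 and Aurka in wild type, and Ccnb2 and Foxm1 in those labelled RNF138-/-, were the ones under 2-fold.

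**Figure D3:**
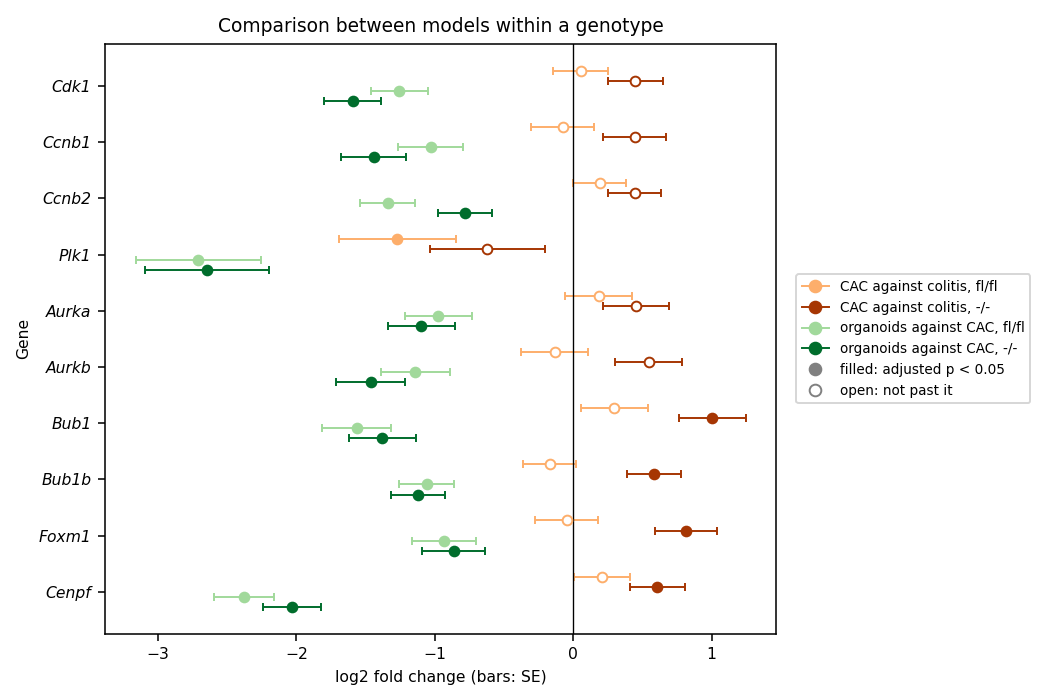
log2 fold change (horizontal axis, bars are SEs) of the 10 genes for CAC against colitis and for organoids against CAC, in wild-type libraries and in those labelled RNF138-/-, with filled points for an adjusted p under 0.05. All 20 organoid points lie below 0 and are filled, while among the CAC points only Plk1 in wild type and Bub1, Bub1b, Foxm1 and Cenpf in RNF138-/- labelled libraries are.

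Cell type markers differed between organoids and tissue. Against CAC, fibroblast markers were higher in organoids for 5 of 6 genes in wild type and 6 of 6 in those labelled RNF138-/-, while all 6 B and plasma cell markers, all 6 T cell markers and all 5 endothelial markers were lower in both. Myeloid markers were lower for 5 of 7 in wild type and 6 of 7 in those labelled RNF138-/-. Differentiated colonocyte markers were lower for 6 of 6 and 2 of 6, and smooth muscle markers were lower for 5 of 5 in wild type but higher for 2 of 5 in those labelled RNF138-/-. Stem cell, epithelial and germinal center B cell markers had calls in both directions in wild type, while in those labelled RNF138-/- 2 of 6 stem cell and 2 of 7 epithelial markers were lower and 3 of 5 germinal center B cell markers were higher with 1 lower. The summed levels in organoids were 0.299 to 1.67 CPM for B and plasma cells, 0.539 to 2.01 CPM for T cells and 1.59 to 4.15 CPM for endothelium, and 1 of 6 markers each of the B and T lists had no count in any organoid library. Per epithelial sum the geometric mean of the 9 genes other than Plk1 was 0.0647% to 0.101% in wild-type organoids against 0.147% to 0.275% in wild-type CAC. In those labelled RNF138-/- it was 0.150% to 0.201% against 0.378% to 0.438%. That ratio does not show which cells carried the transcripts. In bulk RNA fewer cells of a type and less RNA per cell cannot be told apart, and the part of these cell types was not tested.

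Plk1 departed from the other 9 across the series. Its level relative to their geometric mean was 2.71 to 10.2 in colitis libraries, 1.55 to 3.78 in CAC and 0.835 to 1.57 in organoids. Ern2 was at 45.7 to 159 CPM in colitis, 39.9 to 96.3 CPM in CAC and 1.33 to 8.83 CPM in organoids. Both genes were thus lowest in organoids. In the groups labelled RNF138-/- the mean of Ern2 was 67.0 CPM in colitis and 73.4 CPM in CAC, while that of Plk1 was 105.6 and 68.6 CPM. In wild type, where Plk1 was called lower in CAC, the means of both were lower there, 137.7 in colitis and 72.0 CPM in CAC for Ern2 and 158.9 and 65.9 CPM for Plk1. Whether counting used the strand is not given in the sources used here, and without strand reads that run past the end of either gene cannot be told from those of the other; the part of Ern2 reads in the Plk1 counts was not tested. An opposite-strand transcript, Gm44985, also overlaps 156 exon bases of Plk1. It had 265 to 979 counts in the tissue libraries and 14 to 69 in organoids, and its part in the Plk1 counts was not tested.

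**Figure D4:**
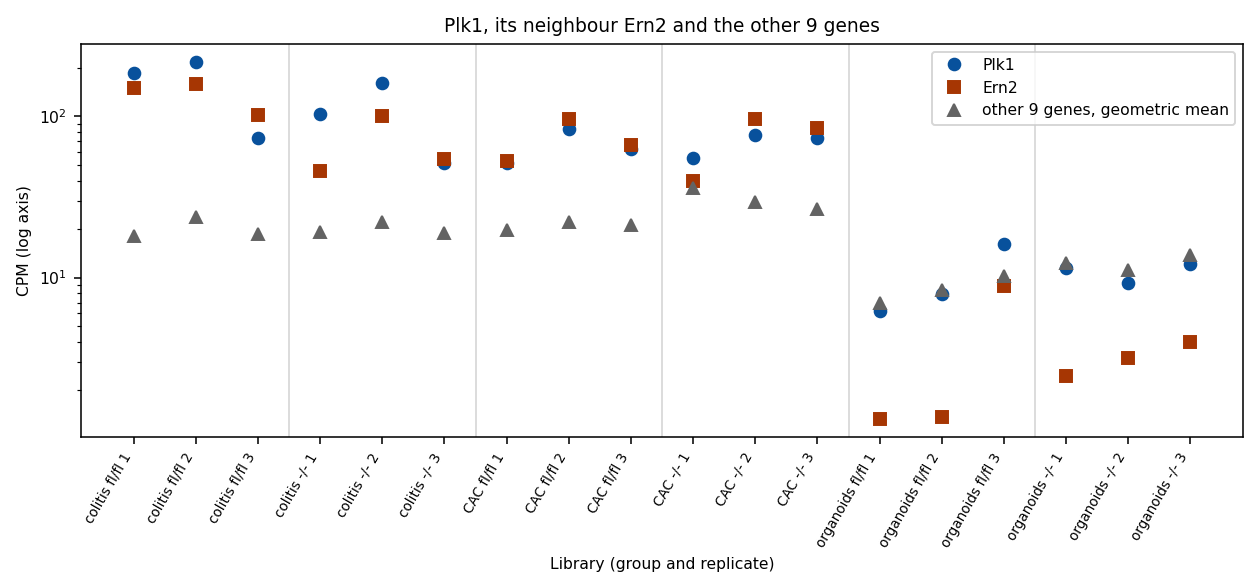
CPM (log axis) of Plk1, of its convergent neighbour Ern2 and of the geometric mean of the other 9 genes in each of the 18 libraries. Plk1 lies above the other 9 in all 12 tissue libraries, 1.55 to 10.2 times their mean, and near them in organoids at 0.835 to 1.57 times, where Ern2 is at 1.33 to 8.83 CPM.

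With the mean of each of the 6 groups removed, the levels of the 10 genes were compared over the 18 libraries. Median correlations of one gene with the other 9, on log2(CPM + 0.5), ran from 0.27 for Cenpf to 0.68 for Ccnb2, and single pairs from -0.31 (Aurka and Cenpf) to 0.86 (Cdk1 and Ccnb2). The genes outside the 10 most like them, by mean correlation among 19380 genes, were Tpx2 with 0.67, a spindle assembly factor that activates Aurora A, Nelfa with 0.63, a subunit of the negative elongation factor, Ccna2 with 0.63, the S and G2 cyclin, Kif18b with 0.63, a mitotic kinesin, and Spc24 with 0.62, a part of the Ndc80 kinetochore complex. These coefficients are descriptions over libraries that share depth and tissue makeup.

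Other genes of the cell cycle were followed through 11 lists chosen by function. In colitis no gene of any list was called between genotypes, and Mki67, Top2a, Ccna2, Cdc20, Mybl2, Pcna and Cdkn1a had log2 fold changes of -0.06, -0.08, 0.08, 0.01, 0.22, -0.05 and 0.06. In CAC 1 of 13 further Cdk1 regulators rose, Mastl (the Greatwall kinase, log2 fold change 0.95, SE 0.20, adjusted p = 0.0467), and 1 of 21 DNA replication genes, Rrm1 (a ribonucleotide reductase subunit, 0.80, SE 0.15, adjusted p = 0.0381). Beside them 1.05% of all genes were called higher. Both calls were lost without CAC replicate 1 or 2 labelled RNF138-/-, where the fit called 0 of all genes. None of the 20 spindle motor and cytokinesis genes, 9 spindle checkpoint partners, 16 kinetochore and centromere genes, 7 other mitotic kinases, 5 partners of the Aurora kinases, 7 genes of anaphase promotion and mitotic exit, 12 genes of the MuvB and DREAM complexes or 21 G1 genes was called. The median log2 fold changes were 0.71 for replication, 0.55 for the checkpoint, 0.47 for the spindle list, 0.41 for the Aurora partners, 0.39 for the G1 genes, 0.32 for the kinetochore list, 0.26 for the other mitotic kinases, 0.23 for the Cdk1 regulators, 0.16 for anaphase promotion and exit and -0.05 for MuvB and DREAM, against 0.006 over all genes. The proliferation marker Mki67 had 0.24 (SE 0.15, adjusted p = 0.307), Top2a 0.93 (SE 0.26, adjusted p = 0.0725), Mybl2 0.92 (SE 0.25, adjusted p = 0.0701), Pcna 0.52 (SE 0.13, adjusted p = 0.0603) and Cdkn1a, the p21 inhibitor, -1.002 (SE 0.25, adjusted p = 0.0579). Ccna2 and Cdc20, the anaphase activator, had 0.32 and 0.16 (adjusted p = 0.297 and 0.565).

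In organoids the further lists had calls in both directions, beside 17.9% of all genes called higher and 17.7% called lower. Of the G1 genes 4 of 21 rose and 2 fell, among them the CDK inhibitors Cdkn2c (log2 fold change 1.07, adjusted p = 0.00295) and Cdkn1c (-0.96, adjusted p = 0.00777) and the D-type cyclin Ccnd3 (0.77, adjusted p = 0.0163). Of the replication genes 1 of 21 rose, the licensing factor Cdt1 (0.99, adjusted p = 0.00459), and 3 fell, namely Mcm10 (-0.71, adjusted p = 0.0126), Orc6 (-0.62, adjusted p = 0.0111) and Pcna (-0.32, adjusted p = 0.0498), with a list median of -0.02. The spindle list had 2 of 20 higher, Aspm (0.87, adjusted p = 0.0236) and Anln (0.58, adjusted p = 0.0151), with a median of 0.45. The shares called in these 3 lists were near or below those of all genes.

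Among the remaining organoid calls were genes of chromatid separation, Pttg1 (securin, log2 fold change 0.90, adjusted p = 0.0125) and Espl1 (separase, 0.75, adjusted p = 0.0393), and the checkpoint partner Kntc1 (0.76, adjusted p = 0.0301). Hjurp, which loads the centromeric histone, rose (0.59, adjusted p = 0.00495), and Mis18a of the same pathway fell (-0.60, adjusted p = 0.0202). The phosphatase inhibitors Arpp19 and Ensa, both targets of Mastl, went opposite ways, -0.98 (adjusted p = 0.00435) and 0.33 (adjusted p = 0.0349). Of the 12 MuvB and DREAM genes 3 rose, Lin54 (0.55, adjusted p = 0.0322), Rbl2 (0.39, adjusted p = 0.0337) and Dyrk1a (0.34, adjusted p = 0.0436), and Lin37 fell (-0.53, adjusted p = 0.0396). No other mitotic kinase and no Aurora partner was called, and Mki67 (0.80, adjusted p = 0.0909), Top2a (0.41, adjusted p = 0.157), Ccna2 (0.22), Cdc20 (0.23), Mybl2 (-0.11) and Cdkn1a (0.08) did not pass.

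For CAC against colitis in mice labelled RNF138-/-, 15 of 20 spindle genes and 6 of 9 checkpoint partners were higher with none lower, as were 9 of 21 replication genes with 1 lower, 5 of 16 kinetochore genes with 1 lower, 4 of 12 MuvB and DREAM genes and 2 of 5 Aurora partners. Other lists had few calls or calls both ways, with 1 of 7 other mitotic kinases higher, 3 of 13 Cdk1 regulators higher and 2 lower, 9 of 21 G1 genes higher and 6 lower, and 0 of 7 genes of anaphase promotion and exit higher and 1 lower. These shares stand beside 27.9% of all genes called higher and 26.7% called lower. Mybl2 of the MuvB list (0.87, adjusted p = 0.0310) and, of the proliferation markers, Top2a (1.04, adjusted p = 0.00198) were higher, while Mki67 (0.53, adjusted p = 0.0967) and Ccna2 (0.52, adjusted p = 0.0511), Cdc20 (0.56, adjusted p = 0.0691) and Pcna (-0.06, adjusted p = 0.768) did not pass and Cdkn1a was lower (-0.75, adjusted p = 0.0314). In wild type the same comparison called 0 of 20 spindle genes and 0 of 9 checkpoint partners, and 4 of 21 replication genes as lower, Pcna with -0.68 (adjusted p = 0.00919). There Mki67, Top2a, Ccna2, Cdc20, Mybl2 and Cdkn1a had log2 fold changes of 0.18, -0.02, 0.23, 0.35, 0.13 and 0.25 and did not pass.

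The spindle, kinetochore, kinase, Aurora partner and checkpoint lists were mostly lower in organoids than in CAC. In wild type 19 of 20 spindle genes, 13 of 16 kinetochore genes, 7 of 7 other mitotic kinases, 5 of 5 Aurora partners and 6 of 9 checkpoint partners were lower, and in those labelled RNF138-/- 20, 15, 7, 5 and 8 of the same lists, with 1 checkpoint partner higher in wild type. Anaphase promotion and exit had 5 of 7 lower and 1 higher in wild type and 4 lower and 1 higher in those labelled RNF138-/-. Calls went both ways for the Cdk1 regulators, with 6 of 13 lower and 3 higher and then 8 and 2, for MuvB and DREAM, with 3 of 12 lower and 2 higher and then 5 and 1, and for the G1 genes, with 6 of 21 lower and 9 higher and then 4 and 8. Mki67 was at -2.60 and -2.06, Top2a at -1.81 and -2.35, Ccna2 at -1.75 and -1.86 and Cdc20 at -0.91 and -0.86, all called in both genotypes, while Mybl2 was at -0.72 (adjusted p = 0.0707) and -1.75 (adjusted p = 0.000322). Of the replication genes 5 of 21 were lower and 1 higher in wild type and 18 lower and 2 higher in those labelled RNF138-/-, and 10 of 21 passed the interaction test as more negative in the latter, beside 10.2% of all genes. Pcna went up in organoids in both (1.25, adjusted p = 1.37e-05, and 0.40, adjusted p = 0.0455), as did Cdkn1a (1.07, adjusted p = 0.00384, and 2.13, adjusted p = 1.39e-05).

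**Figure D5:**
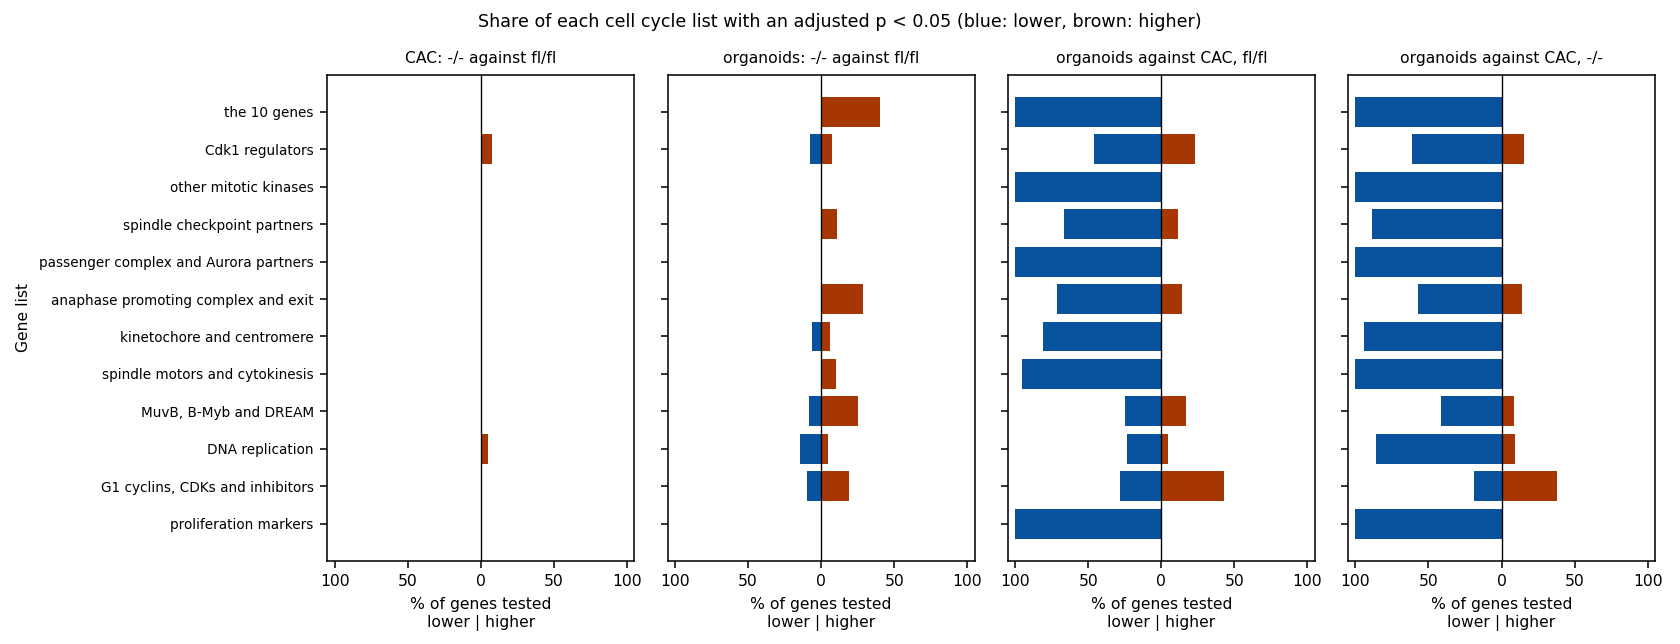
Share of the tested genes of each list (percent) called higher or lower at an adjusted p under 0.05, for the 10 genes and the further cell cycle lists, in 4 comparisons. All of the 10 genes are lower for organoids against CAC in both genotypes, beside 33.7% and 34.2% of all genes, and none is called between genotypes in CAC.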

How the data were processed

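Total RNA of colorectal tissue and organoids was sequenced from TruSeq RNA libraries, and the deposited table holds read counts per gene made by the authors, with no normalization. The submitters' processing notes list STAR 2.6.1d, HTSeq 0.11.2 and DESeq2 with the mm10 build, without saying which served this table, and the study's methods name Cufflinks with Gencode annotation and 150-bp paired reads; use of strand is not given in the sources used here. A second deposited table, with fold changes and p-values of the authors' own comparisons, was not used. GENCODE and RefSeq loci were matched by gene ID or symbol.

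Counts were analysed with edgeR 4.0.16 (limma 3.58.1, R 4.3.3): filterByExpr, TMM scaling and quasi-likelihood tests, within each model (6 libraries) for genotype and over all 18 libraries for comparisons between models and interactions. Adjusted p values are Benjamini-Hochberg over all genes tested, with a threshold of 0.05 and the study's fold of 2 counted beside it. CPM are TMM-scaled over 18 libraries, and SEs are the absolute log2 fold change divided by the square root of F. Depth was 11514716 to 24390082 counts per library, and the biological coefficient of variation was 0.296 in colitis, 0.327 in CAC and 0.187 in organoids, which sets the precision. Replicates differed by more than sampling noise, with chi-square per degree of freedom of 7.44 to 143.5.

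The 10 genes and the further lists were chosen with earlier results of these data known. Named by rule were the 10 genes, Rnf138 (for genotype) and, in the genotype and between-model comparisons, Mki67, Top2a, Ccna2, Cdc20, Mybl2, Pcna and Cdkn1a; from each further list and genotype comparison up to 3 called genes of largest change were named, and the 5 genes most correlated with the 10. Ern2, Adgre1, Itgam, Dyrk1a and Cdkn2a were named after their values were seen. Scripts were tested on simulated data, where 4-fold changes were recovered for 78 of 100 genes in colitis, 47 of 100 in CAC and 91 of 100 in organoids. Shares called by DESeq2 are over the genes with an adjusted p, or with a p for unadjusted shares. Alternatives were DESeq2 1.42.0, RLE scaling, library size alone, no filter, a replicate block, other sets of libraries in the fit, a 2-fold threshold and each library left out; a Y-linked covariate in the tissue models was added after seeing the data.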

Additional observations from a re-analysis of the deposited data

Results flagged for a closer look

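Some cell cycle genes outside the 10 differed in their genotype effect between models by the interaction test of the fit of 18 libraries (edgeR, adjusted p under 0.05), given as differences of log2 fold changes. Between CAC and colitis 8 of 21 DNA replication genes passed as positive, as did 3 of 21 G1 genes, 2 of 12 MuvB and DREAM genes, 2 of 9 checkpoint partners and 1 each of the Aurora partner, spindle and proliferation lists, with 1 of 7 genes of anaphase promotion and exit negative, beside 4.21% and 9.88% of all genes. Those named elsewhere were Kntc1 with 1.54 (SE 0.35, adjusted p = 0.0107), a checkpoint gene, Top2a with 1.06 (SE 0.34, adjusted p = 0.0489), Rrm1 with 0.94 (SE 0.25, adjusted p = 0.0199) and securin, Pttg1, with -2.01 (SE 0.46, adjusted p = 0.0107). Between organoids and CAC the DNA replication list had 10 of 21 genes with a lower genotype difference in organoids, beside 10.2% of all genes lower and 13.1% higher, among them Orc6 with -1.05 (SE 0.25, adjusted p = 0.00768), Mcm10 with -0.87 (SE 0.29), Pcna with -0.85 (SE 0.23) and Rrm1 with -0.71 (SE 0.25).

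Organoids and CAC also differed for Pttg1 with 1.98 (SE 0.46, adjusted p = 0.00650), Ccnd3 with 1.29 (SE 0.37), Cdkn2c with 1.26 (SE 0.29), Ensa with 0.87 (SE 0.19) and Dyrk1a with 0.58 (SE 0.17), all positive, and for Cdkn1c with -1.62 (SE 0.40) and Arpp19 with -1.13 (SE 0.23), both negative. Between organoids and colitis the called genes were Kntc1 with 1.43 (SE 0.36), Cdt1 with 1.12 (SE 0.32), Cdkn2c with 1.09 (SE 0.29) and Arpp19 with -0.81 (SE 0.23). Sex runs with genotype in organoids, and its part in these differences cannot be told apart.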

How the results depend on the processing

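Each count of called genes among the 10 was recomputed under 9 settings, and again while leaving out the 18 libraries one by one. All 10 genes stayed lower in organoids than in CAC in both genotypes throughout, save that a 2-fold threshold left 8 in each; at 2-fold, CAC against colitis kept 1 of 1 in wild type and 1 of 4 in those labelled RNF138-/-. The direction held under all alternatives for 2 of the 10 genes between genotypes in colitis, 9 in CAC, 6 in organoids, and for CAC against colitis 8 in wild type and 10 in those labelled RNF138-/-. Genes higher between genotypes in CAC numbered 4 in the fit of all 18 libraries and 3 with DESeq2, against 0, where all-gene calls were 1797 and 1304 higher, against 186. In organoids, against 4 (all genes 17.9% higher), there were 5 with DESeq2 (17.5%), RLE scaling (18.5%) or no filter (10.6%), Bub1b being the fifth. There was 1 with library size alone (12.5%), 0 at a 2-fold threshold, and 0 to 4 with a library left out. For CAC against colitis in wild type, library size alone and a fit of the 2 models compared each gave 0 lower, against 1, and 0 to 1 with a library left out; in those labelled RNF138-/- library size alone gave 9 higher, against 4 (all genes 37.7%, against 27.9%), and a left-out library 2 to 6 higher and 0 to 1 lower. Interactions had 2 called between CAC and colitis with library size alone and 2 between organoids and colitis with DESeq2, against 0, and 0 to 1 between organoids and either tissue model with a library left out. The cause of these shifts was not tested, beyond fewer libraries in the latter fits.

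Library size alone moved the median log2 fold change of all genes by 0.26 for genotype in CAC, where the 10 had a median of 0.76, by -0.20 in organoids, where they had 0.17, and by 0.31 for CAC against colitis labelled RNF138-/-, where they had 0.82; for organoids against CAC it moved it by -0.17 in wild type, where they had -1.34, and by -0.62 in those labelled RNF138-/-, where they had -2.03 against -1.41. It called 1916 genes higher and 4489 lower between genotypes in organoids, against 2734 and 2702. In CAC 2763 genes were lower in the fit of all 18 libraries and 2657 with DESeq2, against 946; in organoids the 18-library fit kept the count of 4 with 1909 higher and 1349 lower overall. Without wild-type CAC replicate 3 the CAC fit called 407 and 1230, and without replicate 1 or 2 labelled RNF138-/- the CAC fit called 0 of all genes.

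Single genes that turned sign went to values from -0.197 (Aurka in colitis) to 0.126 (Foxm1, CAC against colitis in wild type). No turned value had an adjusted p under 0.05 in its fit. In colitis Bub1 was at -0.0106 with library size alone, -0.0169 with no filter and -0.0105 with DESeq2, and Aurka at -0.00671 with a Y-linked covariate; with a library left out Cdk1 ran from -0.0152 to 0.145, Aurka -0.20 to 0.29, Aurkb -0.30 to 0.0382, Ccnb2 -0.22 to 0.10, Bub1 -0.18 to 0.14, Bub1b -0.27 to 0.0513, Foxm1 -0.24 to 0.0394 and Cenpf -0.0877 to 0.30. Plk1 in CAC ran from -0.16 to 0.22. In organoids library size alone gave Cdk1 -0.13, Plk1 -0.14, Aurka -0.0296 and Aurkb -0.0169, and a left-out library Cdk1 -0.11 to 0.37 and Plk1 -0.16 to 0.60. For CAC against colitis in wild type Foxm1 was at 0.00905 with library size alone and -0.21 to 0.13 with a library left out, and Cdk1 at -0.0225 to 0.11.

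Same-numbered libraries of the genotypes had correlations of 0.23, 0.09 and 0.48 (colitis), 0.03, 0.21 and 0.07 (CAC) and -0.18, -0.07 and 0.05 (organoids), so the numbers were not taken as pairs. With the replicate number as a block no call changed: between genotypes 0 passed for colitis or for CAC in either direction and 4 rose in organoids, and the counts higher and lower were 0 and 1 for CAC against colitis in wild type, 4 and 0 in those labelled RNF138-/-, 10 lower for organoids against CAC in each genotype and 0 for the interactions.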

Other observations

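Of 3 inhibitors of the G1 kinases given here, Cdkn1a was named by rule and Cdkn2c for its call in organoids, while Cdkn2a was picked after its values were seen. Cdkn2a, which encodes p16 and p19ARF, was at most 0.90 CPM in colitis, at 17.1 to 26.7 CPM in CAC labelled RNF138-/- and at 37.5 to 101 CPM in organoids. In wild-type CAC it was at 11.99 and 9.67 CPM in replicates 1 and 2 and at 0.0946 CPM in replicate 3, the library that also stood apart in its colonocyte markers. CAC exceeded colitis for Cdkn2a by a log2 fold change of 4.96 in wild type (SE 0.99, adjusted p = 0.00251) and 5.39 in those labelled RNF138-/- (SE 0.89, adjusted p = 0.000138) by edgeR, with colitis levels near 0 on which the size of these values depends. Cdkn1a was at 116 to 333 CPM in tissue and 370 to 608 CPM in organoids, and Cdkn2c fell in CAC against colitis in both genotypes, by 1.17 (SE 0.21, adjusted p = 0.000982) and 1.34 (SE 0.20, adjusted p = 7.44e-05) on the log2 scale.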
